A study of Homo sapiens with 90 samples.

Results

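Transcript levels were followed over the first 2 hours in the negative control arm of a cetuximab experiment on BxPC-3 cells, a line long established from a human adenocarcinoma of the pancreas. The arrays were chosen by their labels as the negative controls at 5, 10 and 30 min and at 1 and 2 h, each set against negative controls at time 0, which gave 18 of the 90 arrays of the series, 3 at each of 6 times. All cells were grown in 2% FBS in DMEM, were kept in 0.2% FBS for 24 hours before time 0 and were seeded in 12-well plates. The control arm received no cetuximab, the therapeutic antibody against EGFR (the epidermal growth factor receptor). The other arm, used below for a single comparison, was given it at 10 µg/ml from time 0 on. Whether control wells had a change of medium or a mock addition at time 0 is not given in the sources used here, and controls had the same starvation at every time, so a difference from time 0 holds whatever happened in the wells between that time and collection. The labels do not say whether the 3 replicates were separate cultures, and p-values then reflect no more than the scatter among these arrays, possibly technical.

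Cells answer growth factors, stress and a disturbed medium with immediate early genes, which are transcribed from factors already present in the cell and need no new protein. Many encode transcription factors (FOS, EGR1, ATF3), others encode brakes on the signal that induced them (the MAP kinase phosphatase DUSP1, the NF-kB inhibitor NFKBIA) or secreted messengers (CXCL8, HBEGF). Their transcripts carry decay signals and are short-lived, so their levels follow the activity of the pathways upstream closely. A second kind of early response is that of NRF2, a transcription factor that is stabilised by oxidants and electrophiles and drives genes of the thioredoxin and glutathione systems such as TXNRD1 and GCLM.

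The promoters of 3 of the early transcription factors that fell furthest are shown for elements known to switch such genes on. All 3 windows held the core of the cyclic AMP response element, and EGR1 alone the CArG box of serum response factor. ATF3 also fell that far, but its window, not printed, held neither element. Sites outside the windows were not searched. Each window runs over 300 bases, 250 before and 50 after the gene start, 5′ to 3′ on the plus strand (RefSeq, GRCh38.p14), at chr14:75278578-75278877 for FOS, chr5:138465229-138465528 for EGR1 and chr19:45467746-45468045 for FOSB. Capitals mark the core of the cyclic AMP response element, TGACG read on either strand, and the CArG box, which reads alike on both strands.

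FOS: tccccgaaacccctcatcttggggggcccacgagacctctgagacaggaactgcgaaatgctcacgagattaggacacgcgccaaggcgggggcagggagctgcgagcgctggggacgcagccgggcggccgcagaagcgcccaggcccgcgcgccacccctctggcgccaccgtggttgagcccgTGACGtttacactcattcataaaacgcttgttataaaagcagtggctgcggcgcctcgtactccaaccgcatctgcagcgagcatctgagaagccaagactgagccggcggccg

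EGR1: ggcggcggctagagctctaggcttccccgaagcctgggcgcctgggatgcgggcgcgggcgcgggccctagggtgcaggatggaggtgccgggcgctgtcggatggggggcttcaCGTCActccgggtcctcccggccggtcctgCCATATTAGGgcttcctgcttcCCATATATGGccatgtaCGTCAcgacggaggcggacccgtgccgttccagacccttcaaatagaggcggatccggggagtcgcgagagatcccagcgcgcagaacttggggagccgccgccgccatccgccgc

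FOSB: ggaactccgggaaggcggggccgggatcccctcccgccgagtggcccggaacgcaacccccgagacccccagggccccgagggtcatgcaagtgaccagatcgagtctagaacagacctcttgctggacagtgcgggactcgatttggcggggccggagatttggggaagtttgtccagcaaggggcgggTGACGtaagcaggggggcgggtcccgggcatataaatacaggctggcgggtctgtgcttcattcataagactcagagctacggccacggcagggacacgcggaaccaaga

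The FOS window held the TGACG core at positions -64 to -60 from the gene start and the FOSB window at -60 to -56, both just upstream of their start. EGR1 held CArG boxes at -105 to -96 and at -83 to -74, with TGACG cores on the minus strand on either side of them, at -135 to -131 and at -66 to -62. Matches to the short TGACG are common, in 25.0% of 27305 promoter windows of the same length, whereas the CArG box was in 1.29%. Among list members tested that had a window, TGACG was in 7 of 9 AP-1 and ATF factors and in 5 of 9 EGR, NR4A and SRF-driven factors, and the CArG box in 0 and 2 of these. Over the 10125 genes tested that had a window the shares were 33.9% and 1.12%. Genes whose fall was called at both 1 h and 2 h had TGACG in 121 of 454 windows (26.7%) and genes with such a rise in 162 of 405 (40.0%), given here with no test. The ATF3 window held neither. TXNRD1, which had the largest rise at 2 h and whose promoter was added after its values were seen, is shown with the core of the antioxidant response element bound by NRF2, TGACNNNGC on either strand, in capitals (chr12:104215529-104215828, plus strand).

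TXNRD1: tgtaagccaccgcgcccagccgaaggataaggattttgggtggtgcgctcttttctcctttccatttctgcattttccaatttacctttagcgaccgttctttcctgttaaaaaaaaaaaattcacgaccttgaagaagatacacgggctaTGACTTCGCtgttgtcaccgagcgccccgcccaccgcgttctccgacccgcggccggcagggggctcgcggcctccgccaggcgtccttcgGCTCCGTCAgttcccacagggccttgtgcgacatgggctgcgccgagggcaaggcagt

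The TXNRD1 window held the antioxidant core at -99 to -91 and, on the minus strand, across the start at -8 to 1. It was in 4 of 12 NRF2 target promoters with a window, against 13.6% of all promoters and 15.2% of those of genes tested. Only the first window listed for a gene was used, so other starts of TXNRD1 were not looked at. A match of letters is a description of these windows and does not show that a factor was bound.

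The label was checked against marker genes. Of 15 epithelial and duct markers 12 had a probe with a gene symbol, all 12 were bright enough to be tested, and KRT19, the keratin of duct cells, averaged 11.89 on the log2 scale. KRT19 was lower by 0.32 at 2 h (adjusted p = 0.02). That call was kept in 3 of 6 fits with 1 array left out (adjusted p up to 0.122, without the first time 0 replicate). With a replicate number left out it was kept in 0 of 3 (adjusted p up to 0.179). The mean log2 signal over the epithelial markers lay between 8.26 and 8.48 in the later arrays and between 8.42 and 8.55 at time 0. Markers of fibroblasts averaged 4.09 to 4.27 in the later arrays and 4.18 to 4.23 at time 0, and none of the 8 reached a mean of 5. Endothelial markers likewise stayed at 4.02 to 4.29 and 4.10 to 4.24. Of the leukocyte and acinar lists a few members were above that level, among them CD68 at 8.05 and CEL at 5.74. CD68 is a lysosomal protein that many cell types make. Of these 4 lists only 5 fibroblast, 5 leukocyte, 2 acinar and 2 endothelial markers were bright enough to be tested. None of those was called at any of the 5 times, where 3.12% to 17.9% of all genes were. AMY2A, a pancreatic amylase with a mean level of 4.29 on the probe used, came closest, with -0.35 at 2 h (adjusted p = 0.058). It was called there with the replicate number as a block (adjusted p = 0.0395, 0.0442 with only the arrays compared and 0.0481 as a random effect) and with only the arrays compared and no block (adjusted p = 0.0429). Arrays were alike in scale (medians 4.29 to 4.30) and correlated within groups at r of 0.987 to 0.988 over all probes.

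Changes were visible at 5 min and were most numerous at 30 min. Of 12735 genes tested with limma, 397 were called at 5 min (Benjamini-Hochberg adjusted p under 0.05), 675 at 10 min, 2277 at 30 min, 2084 at 1 h and 1369 at 2 h, which is 3.12%, 5.3%, 17.9%, 16.4% and 10.7% of the genes, and a test over all 5 times called 2428 (19.1%). Rises made up 61.5%, 53.8%, 51.4%, 45.2% and 48.5% of the calls in order of time, with 244 higher and 153 lower at 5 min, 363 and 312 at 10 min, 1170 and 1107 at 30 min, 941 and 1143 at 1 h, and 664 and 705 at 2 h. Most were small, with a median absolute change of 0.40 to 0.43 on the log2 scale among called genes, and those that changed by more than 1 numbered 5, 23, 66, 70 and 38 from the first time to the last. The large changes were mainly falls, 52 of 70 at 1 h. All 5 comparisons share the 3 arrays of time 0, so the same random error of those arrays is in each. Levels were also compared without them: against the mean of 5 and 10 min, 1253 genes were called at 30 min (9.84%), 1309 at 1 h (10.3%) and 234 at 2 h (1.84%). Rises were 46.6%, 34.7% and 23.9% of these calls, with 584 higher and 669 lower at 30 min, 454 and 855 at 1 h, and 56 and 178 at 2 h. The earliest count leaned on single arrays, with 210 genes called at 5 min without the first 5 min replicate, 248 without the second time 0 replicate and 260 without the third, and at 10 min 449 without the first 10 min replicate. In bulk RNA fewer cells of a kind and less RNA per cell cannot be told apart.

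**Figure D1:**
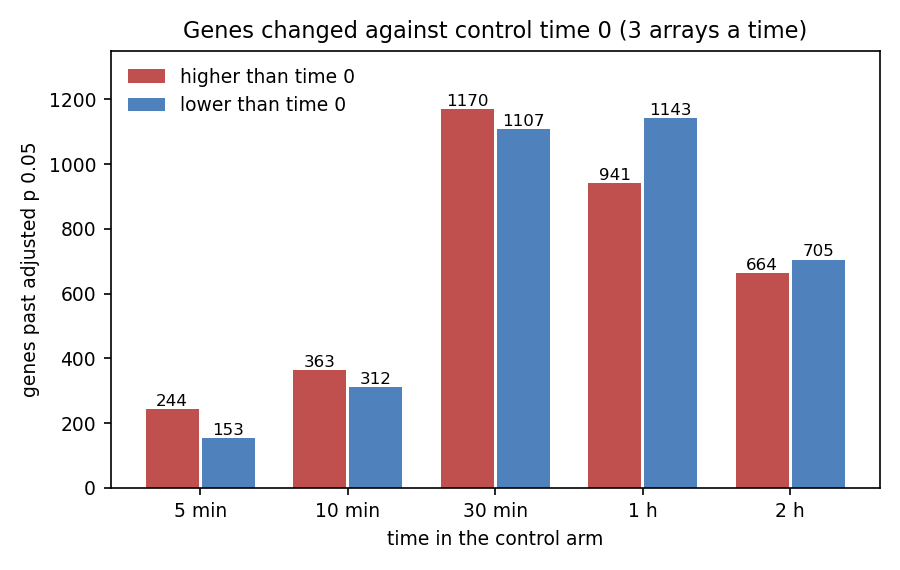
Number of genes called higher or lower than control time 0 at each time (bars, limma, adjusted p under 0.05, 12735 genes, 3 arrays a time). Counts peaked at 30 min for rises, 1170 genes, and at 1 h for falls, 1143 genes.

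Most transcription factors of the immediate early response that were called were lower than at time 0, and a few rose. FOS, which pairs with JUN proteins to form AP-1, read 9.73, 9.87 and 9.78 at time 0 on the log2 scale, 8.04, 7.96 and 7.94 at 5 min, 7.23, 7.23 and 7.29 at 10 min, 6.96, 7.15 and 7.23 at 30 min, 6.42, 6.66 and 6.62 at 1 h, and 7.46, 7.35 and 7.52 at 2 h. Every later array lay below every time 0 array, already at 5 min, and the 3 arrays of 1 h were the lowest. The fall was 1.81 ± 0.12 at 5 min (log2, SE of the fit, adjusted p = 1.35e-19, 3.51-fold lower), 3.23 at 1 h (9.37-fold lower, adjusted p = 5.54e-34) and 2.35 at 2 h (5.11-fold lower, adjusted p = 8.26e-26). Between 1 h and 2 h part of it came back, 2 h minus 1 h being 0.88 ± 0.12 (adjusted p = 1.51e-06).

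EGR1, a zinc finger factor that serum response factor drives, followed nearly the same course. It read 10.89, 10.68 and 10.74 at time 0, 8.86, 9.38 and 9.28 at 5 min, 8.36, 8.56 and 8.78 at 10 min, 8.18, 8.65 and 8.64 at 30 min, 7.66, 7.66 and 7.95 at 1 h, and 8.70, 8.34 and 8.42 at 2 h. The difference from time 0 was -1.60 at 5 min, -3.02 at 1 h (8.13-fold lower, adjusted p = 1.37e-28) and -2.29 at 2 h, with a return of 0.73 ± 0.14 after 1 h (adjusted p = 0.00062). EGR3, its relative, differed by -0.98, -1.36, -1.84, -2.07 and -1.94 at the 5 times, all called. A second probe of EGR3 of nearly the same mean level (4.28 against 4.44) differed by only -0.32, -0.16, 0.03, -0.04 and -0.21.

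ATF3, a stress-induced factor of the ATF/CREB family, was slower. Its arrays read 10.07, 10.20 and 10.01 at time 0, 9.25, 9.64 and 9.41 at 5 min, 8.84, 9.12 and 9.12 at 10 min, 7.14, 7.62 and 7.57 at 30 min, 6.76, 7.00 and 7.16 at 1 h, and 8.01, 8.35 and 8.39 at 2 h. The largest step came between 10 and 30 min, and no gene tested had a larger recovery, 1.28 ± 0.16 for 2 h minus 1 h (adjusted p = 8.21e-07), from a difference of -3.12 at 1 h. FOSB took the same shape, at -0.71, -1.34, -2.13, -2.42 and -1.77. JUNB (-1.28 at 1 h), JUN (-0.82) and the orphan receptor NR4A2 (-1.43 at 30 min) fell too, and all 3 were still lower at 2 h.

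As a group, 7 of 10 AP-1 and ATF factors were called lower at 1 h and none higher, with a median change of -0.70, where 8.98% of all genes were called lower. At 5 min the same list already had 5 lower and 2 higher, against 1.2% and 1.92% of all genes. FOSL1, another partner of JUN proteins, was one of those higher, by 0.53 at 5 min and 0.44 at 30 min, and at 2 h its difference of 0.24 was not called (adjusted p = 0.107). Of 13 EGR, NR4A and SRF-driven early factors 5, 6, 9, 11 and 8 were lower from 5 min to 2 h, where the share of all genes called lower was 1.2%, 2.45%, 8.69%, 8.98% and 5.54%. Members of this list called higher numbered 0, 0, 1, 1 and 1, against 1.92%, 2.85%, 9.19%, 7.39% and 5.21% of all genes. The median over all genes tested stayed between -0.01 and 0.00 at each time. JUND, the AP-1 member that most cells express steadily, fell by 0.57 at 1 h and returned, with 0.50 for 2 h minus 1 h (adjusted p = 6.96e-06).

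**Figure D2:**
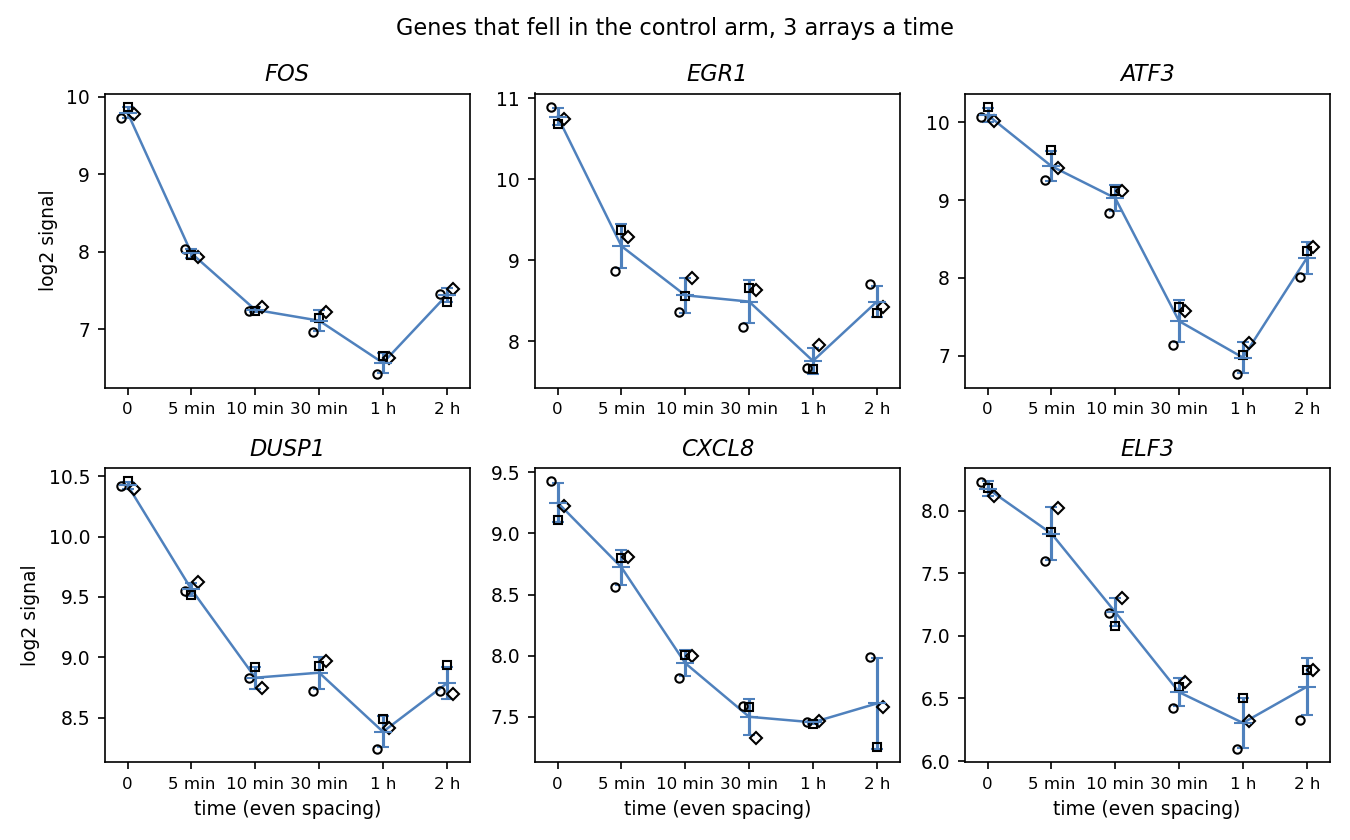
Log2 signal of 6 genes that fell in the control arm at time 0, 5, 10 and 30 min and 1 and 2 h (circles, squares and diamonds are replicates 1, 2 and 3, lines join means, bars are SD, n = 3). FOS and EGR1 were down at 5 min, ATF3 had its largest step between 10 and 30 min, ELF3 was 0.99 below time 0 at 10 min and 1.87 below it at 1 h, and FOS, EGR1, ATF3 and DUSP1 were higher at 2 h than at 1 h.

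Feedback inhibitors and signalling brakes changed in both directions. DUSP1, which removes phosphate from MAP kinases, read 10.42, 10.46 and 10.39 at time 0, 9.55, 9.51 and 9.62 at 5 min, 8.82, 8.92 and 8.74 at 10 min, 8.72, 8.92 and 8.97 at 30 min, 8.24, 8.49 and 8.42 at 1 h, and 8.72, 8.94 and 8.70 at 2 h. The groups of each later time were apart from time 0, and the fall reached 2.04 ± 0.09 at 1 h (adjusted p = 1.37e-28). DUSP5, a nuclear ERK phosphatase, fell by 0.80 at 1 h, while DUSP14 rose by 0.40 at 5 min and 0.78 at 2 h. DUSP6, a phosphatase specific to ERK and a common readout of its activity, was not called at any time, with differences between -0.23 and -0.09. Of 10 MAP kinase phosphatases 1, 3, 4, 3 and 3 were lower and 1, 1, 2, 2 and 1 higher from 5 min to 2 h, where 1.2% of all genes were lower and 1.92% higher at 5 min, and 8.98% and 7.39% at 1 h. ERK output genes as a list were divided, with 4 of 15 higher and 4 lower at 30 min (9.19% and 8.69% of all genes).

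SPRY1, which restrains receptor tyrosine kinase signalling, was lower at every time, by 0.51 to 0.67, although a dimmer second probe of the gene differed by only -0.16 at 10 min. SMAD6 and SMAD7, inhibitors of BMP and TGF-beta signalling, were down by 0.82 and 0.74 at 5 min and by 1.35 and 1.21 at 1 h, and ID1, a BMP target, by 1.18 at 1 h. BAMBI, a decoy receptor that dampens TGF-beta and BMP signals, rose by 0.46 at 5 min and 0.51 at 30 min. Of 14 genes of this kind 5 were lower and 2 higher at 1 h, against 8.98% and 7.39% of all genes, with a median of -0.12. ZFP36, which binds AU-rich transcripts and speeds their decay, was lower by 0.83 at 5 min and by 1.01 at 2 h. BCL6, PIK3IP1 and CITED2, genes that growth factor signalling through PI3K holds down, fell by 1.05, 1.08 and 0.96 at 1 h, and in their list of 18 there were 9 called lower and 2 higher at that time, against 8.98% and 7.39% of all genes.

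Secreted messengers went both ways, and several of those that fell were still low at 2 h. CXCL8, the neutrophil chemokine interleukin 8, read 9.42, 9.11 and 9.22 at time 0, 8.56, 8.80 and 8.81 at 5 min, 7.82, 8.00 and 7.99 at 10 min, 7.59, 7.58 and 7.33 at 30 min, 7.46, 7.44 and 7.46 at 1 h, and 7.99, 7.25 and 7.58 at 2 h. The 1 h difference was -1.80 ± 0.14 (adjusted p = 8.51e-17), and 2 h minus 1 h, 0.15, was not called. IL1A and IL1B, the interleukin 1 cytokines, were lower by 1.26 and 1.37 at 2 h, and PTGER4, a receptor for prostaglandin E2, by 1.78. HBEGF, a ligand of EGFR, fell by 1.28 at 1 h, whereas its relative TGFA rose by 0.72 at 30 min and NRG1, a ligand of ERBB3, by 0.57. EGFR itself differed by -0.16 to 0.13 and was not called at any time. IL11, a cytokine of the interleukin 6 family, rose by 0.87 at 5 min (adjusted p = 2.61e-05) and was 1.01 higher at 2 h. Of 12 cytokines and chemokines 2, 4, 5, 5 and 4 were called lower from 5 min to 2 h, against 1.2%, 2.45%, 8.69%, 8.98% and 5.54% of all genes, and 2, 1, 1, 2 and 2 higher, against 1.92%, 2.85%, 9.19%, 7.39% and 5.21%. The list's median was -0.01 at 5 min and -0.42 at 1 h.

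ELF3, an epithelial ETS factor, read 8.23, 8.18 and 8.12 at time 0, 7.60, 7.83 and 8.02 at 5 min, 7.19, 7.08 and 7.30 at 10 min, 6.42, 6.59 and 6.63 at 30 min, 6.10, 6.50 and 6.32 at 1 h, and 6.33, 6.73 and 6.72 at 2 h. It was not yet called at 5 min (adjusted p = 0.106) and was lower by 1.87 ± 0.12 at 1 h (adjusted p = 2.99e-20), apart from time 0 in every array. TCIM, a regulator of Wnt signalling, dropped by 1.46 at 5 min and stood 2.17 lower at 2 h, with no return after 30 min (2 h minus 30 min 0.06, adjusted p = 0.938). CCN2 and CCN1, matrix proteins that YAP induces, were lower by 1.38 and 0.89 at 1 h, but their list as a whole had 2 lower and 4 higher of 15 at that time, against 8.98% and 7.39% of all genes. ERBB3 fell by 1.06 at 1 h on its brightest probe, and its other probes differed by -0.06 and -0.05.

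Several genes of the thioredoxin and glutathione systems were higher and remained so at 2 h. TXNRD1, thioredoxin reductase, read 7.94, 7.82 and 7.85 at time 0, 9.00, 8.72 and 8.74 at 5 min, 9.28, 9.03 and 9.08 at 10 min, 9.15, 9.20 and 9.21 at 30 min, 9.53, 9.09 and 9.14 at 1 h, and 9.79, 9.54 and 9.45 at 2 h. All later arrays were above time 0 and those of 2 h were highest on average, with a rise of 0.95 ± 0.12 at 5 min (adjusted p = 2.7e-08) and 1.72 ± 0.12 at 2 h (3.30-fold, adjusted p = 6.42e-19). A second probe of the gene rose by 1.63 at 2 h. SRXN1, sulfiredoxin, which repairs oxidised peroxiredoxins, was higher by 0.57 at 5 min, 0.78 at 10 min, 1.00 at 30 min, 1.03 at 1 h and 1.08 at 2 h. GCLM and GCLC, the subunits of the enzyme that makes the first intermediate of glutathione, were higher by 0.98 and 0.90 at 1 h and by 0.83 and 0.82 at 2 h.

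The first replicate was the highest for several of these genes at 2 h. SRXN1 read 9.91, 9.19 and 9.25 there, and without the first 2 h replicate its rise was 0.86 (adjusted p = 7.8e-08) and that of TXNRD1 1.62. That array and the first at 1 h also stood apart in the metallothioneins, metal-binding proteins: MT1G read 9.55, 7.31 and 7.19 at 1 h and 10.05, 7.61 and 7.35 at 2 h, against 8.09, 7.55 and 7.43 at time 0. No metallothionein was called at any time (MT1G at 2 h, adjusted p = 0.416), and their copies are so alike that probes may read more than 1 gene. Of the 15 NRF2 targets tested 3, 4, 6, 6 and 5 were higher from 5 min to 2 h, against 1.92%, 2.85%, 9.19%, 7.39% and 5.21% of all genes. NRF2 targets called lower numbered 0, 1, 1, 0 and 0, against 1.2%, 2.45%, 8.69%, 8.98% and 5.54% of all genes. The median of the list was 0.02 at 5 min, 0.21 at 1 h and 0.15 at 2 h.

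ANGPTL4, a secreted inhibitor of lipoprotein lipase, rose by 0.48 at 5 min (adjusted p = 0.0128) and most between 10 and 30 min. It read 6.04, 6.13 and 6.03 at time 0, 6.67, 6.41 and 6.57 at 5 min, 6.93, 6.52 and 6.82 at 10 min, 7.99, 7.89 and 7.86 at 30 min, 7.96, 7.62 and 7.97 at 1 h, and 7.72, 7.20 and 7.33 at 2 h. The rise of 1.85 ± 0.12 at 30 min (adjusted p = 7.96e-20) had shrunk by 0.50 at 2 h (adjusted p = 0.014). A dimmer second probe rose by only 0.44 at 30 min. HPCAL1, a calcium sensor, and THBD, the anticoagulant receptor thrombomodulin, rose by 1.71 and 1.68 at 30 min, and CYP1A1, the classic target of the aryl hydrocarbon receptor, by 1.38. The chorionic gonadotropin genes CGB1 and CGB5 rose by 1.46 and 1.45 there, but they are near-identical copies and their probes may read each other. PFKFB4, a regulator of glycolysis, rose by 1.05 at 30 min, whereas ANKRD37, a target of hypoxia-inducible factor, fell by 1.06.

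A few genes rose, dipped at 1 h and rose again. RBPMS2, an RNA-binding protein, read 4.51, 4.41 and 3.65 at time 0, 5.38, 5.33 and 5.20 at 5 min, 5.46, 5.62 and 5.66 at 10 min, 5.20, 5.38 and 5.44 at 30 min, 4.80, 4.75 and 5.19 at 1 h, and 5.53, 5.64 and 5.67 at 2 h. Its 2 h level was above that of 1 h by 0.70 ± 0.19 (adjusted p = 0.0414), and the third time 0 array was far below the other 2. DENND2C, a guanine nucleotide exchange factor for RAB proteins, was 0.66 higher at 2 h than at 1 h (adjusted p = 0.00928), ARID3B, a DNA-binding factor, 0.43 (adjusted p = 0.0179) and BCL3, an atypical IkB protein, 0.36 (adjusted p = 0.0176). At 5 min these 4 were already higher than time 0, by 1.11, 0.92, 1.19 and 0.71. Across all genes, 118 were higher at 2 h than at 1 h and 70 lower, 0.927% and 0.55%.

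**Figure D3:**
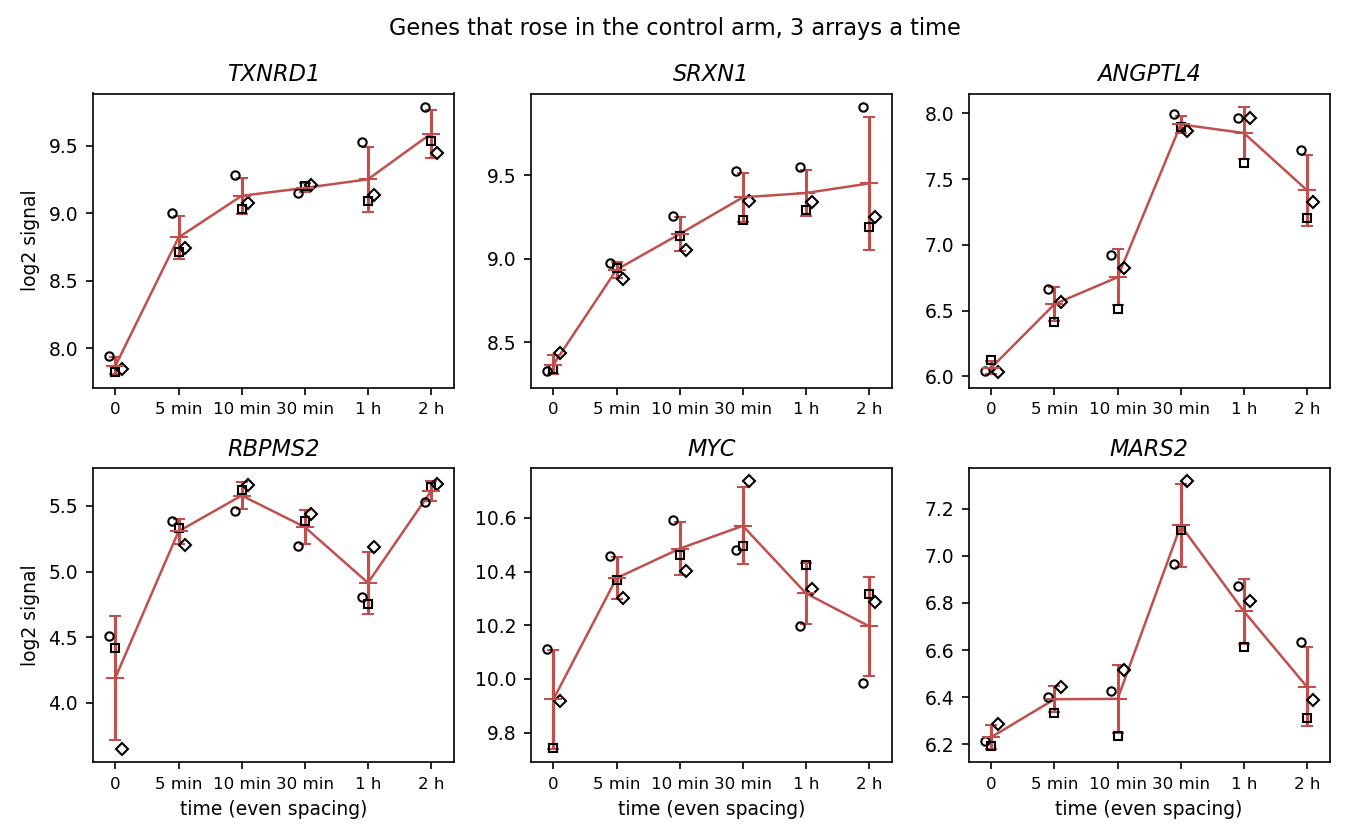
Log2 signal of 6 genes that rose in the control arm at time 0, 5, 10 and 30 min and 1 and 2 h (circles, squares and diamonds are replicates 1, 2 and 3, lines join means, bars are SD, n = 3). TXNRD1 and SRXN1 stayed up, ANGPTL4 peaked at 30 min, RBPMS2 dipped at 1 h, and MARS2 and, on its brightest probe, MYC had come down at 2 h.

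NF-kB feedback genes went both ways. NFKBIA, the inhibitor that NF-kB induces to hold itself in the cytoplasm, read 10.69, 10.53 and 10.58 at time 0, 10.46, 10.43 and 10.51 at 5 min, 9.70, 10.09 and 9.79 at 10 min, 9.33, 9.10 and 9.18 at 30 min, 9.66, 9.13 and 9.35 at 1 h, and 9.34, 9.53 and 9.52 at 2 h. It was not called at 5 min (adjusted p = 0.766) and was lower by 1.40 ± 0.13 at 30 min (adjusted p = 1.38e-13), and NFKBIZ, a nuclear relative, by 0.56 at 5 min and 0.68 at 2 h. TNIP1, which binds the ubiquitin editor A20, rose by 0.33 at 5 min and by 0.66 at 2 h. A20 itself, TNFAIP3, rose by 0.55 at 5 min and was 0.84 below that level at 2 h (adjusted p = 2.98e-06). Of this list of 11 there were 4, 4, 4, 2 and 4 higher from 5 min to 2 h, against 1.92%, 2.85%, 9.19%, 7.39% and 5.21% of all genes, and 1, 2, 2, 3 and 2 lower, against 1.2%, 2.45%, 8.69%, 8.98% and 5.54%.

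MYC and members of the ribosome biogenesis, amino acid stress and endoplasmic reticulum chaperone lists were higher at 30 min. MYC, the transcription factor of growth and ribosome assembly, read 10.11, 9.74 and 9.92 at time 0, 10.46, 10.37 and 10.30 at 5 min, 10.59, 10.46 and 10.40 at 10 min, 10.48, 10.49 and 10.74 at 30 min, 10.20, 10.42 and 10.34 at 1 h, and 9.98, 10.32 and 10.29 at 2 h. It rose by 0.65 ± 0.10 at 30 min (adjusted p = 5.74e-07), and by 2 h it had come back by 0.37 (adjusted p = 0.0289) and overlapped time 0. A dimmer second probe of MYC was higher by 0.50 at 30 min and still by 0.39 at 2 h, so the return was clear on 1 probe only. Of 22 genes of ribosome biogenesis 10 were higher at 30 min and 1 lower, against 9.19% and 8.69% of all genes, with POLR1C, an RNA polymerase I subunit, at 0.56, RRP12 at 0.53 and NOP16 at 0.61, and the list's median was 0.27. Genes of the amino acid stress response under ATF4 numbered 9 higher and 1 lower of 22 at that time, among them the mitochondrial folate enzyme MTHFD2 (0.64), and endoplasmic reticulum chaperones 7 higher and 0 lower of 16.

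HSPA5, the main chaperone of the endoplasmic reticulum, was 6.88, 6.96 and 6.86 at time 0, 7.23, 7.08 and 6.97 at 5 min, 7.25, 6.95 and 7.14 at 10 min, 7.73, 7.64 and 7.73 at 30 min, 7.56, 7.24 and 7.49 at 1 h, and 7.59, 7.32 and 7.30 at 2 h. It was higher by 0.80 ± 0.09 at 30 min (adjusted p = 2.66e-10) and by 0.50 at 2 h. The heat shock protein list, which holds the mitochondrial chaperonins HSPD1 and HSPE1 beside cytosolic members, had 2 of 19 called higher at 30 min, a share near the 9.19% of all genes, with a median of 0.03. None of 13 housekeeping genes was called at any time, where 3.12% to 17.9% of all genes were. Ribosomal protein genes had a median between -0.09 and 0.00, with 1 of 21 called lower at 30 min, against 8.69% of all genes. At 1 h 1 of them was lower and 1 higher, against 8.98% and 7.39% of all genes.

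Cell cycle and sterol lists had other medians at 5 min than at 10 min. The 34 S phase genes had a median of -0.18 at 5 min, 0.01 at 10 min and -0.13 at 30 min. At these times 3, 0 and 8 members were lower, against 1.2%, 2.45% and 8.69% of all genes. Members called higher numbered 0, 0 and 1, against 1.92%, 2.85% and 9.19%. GINS2, a subunit of the replicative helicase, fell by 0.43 at 5 min and had returned at 2 h (0.34 for 2 h minus 5 min, adjusted p = 0.00322), and PRIM1, the primase, fell by 0.60 at 30 min. AURKA, a mitotic kinase, was lower by 0.76 at 2 h. In its list of 36 mitosis genes 3 were lower and 1 higher at 2 h, against 5.54% and 5.21% of all genes. The median of that list at 2 h was -0.09. HMGCS1, an early enzyme of cholesterol synthesis, read 9.57, 9.65 and 9.71 at time 0, 9.60, 9.49 and 9.42 at 5 min, 10.27, 10.21 and 10.25 at 10 min, 9.84, 9.61 and 9.55 at 30 min, 10.09, 9.92 and 10.04 at 1 h, and 10.19, 9.98 and 10.07 at 2 h. It was thus high at 10 min (0.60, adjusted p = 9.15e-07), back at time 0 levels at 30 min (0.03, adjusted p = 0.898) and high again at 2 h (0.44, adjusted p = 0.000224). The sterol list of 15 alternated likewise, with medians of -0.17, 0.19, 0.01, 0.17 and 0.10. Its members called lower numbered 2, 0, 1, 0 and 0, against 1.2%, 2.45%, 8.69%, 8.98% and 5.54% of all genes. Those called higher numbered 0, 1, 0, 2 and 1, against 1.92%, 2.85%, 9.19%, 7.39% and 5.21%.

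**Figure D4:**
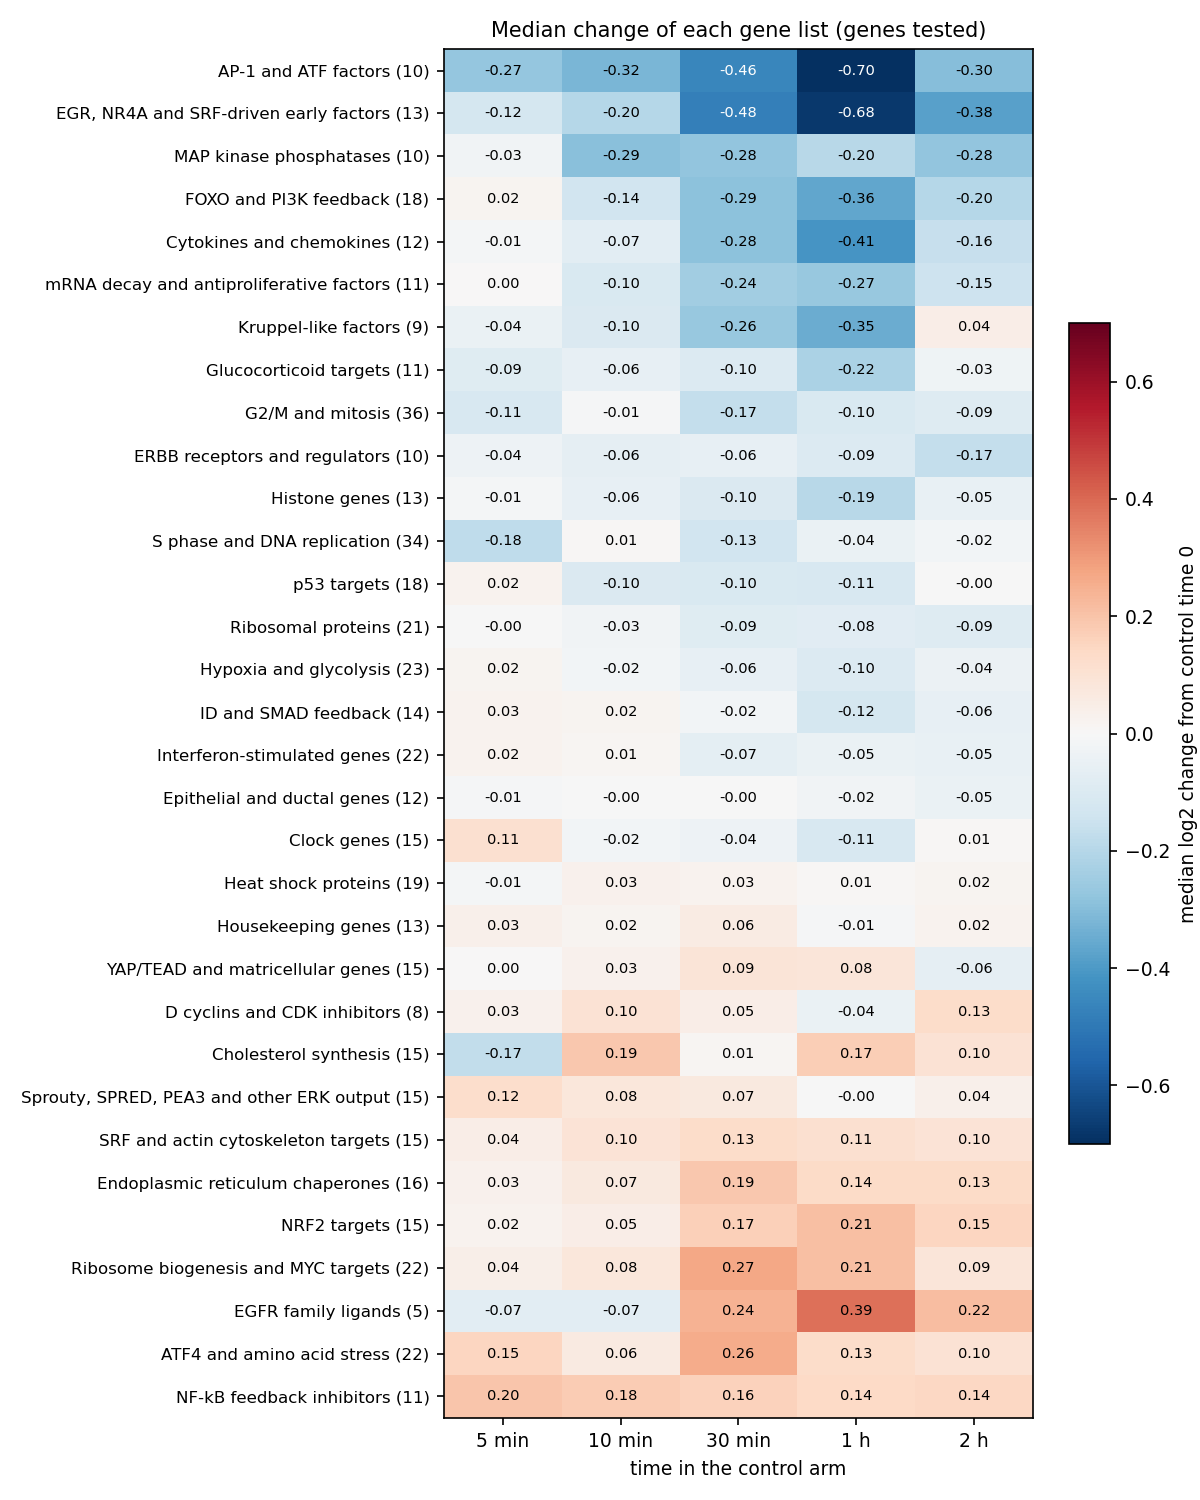
Median log2 change from control time 0 over the tested members of each gene list (rows, number of genes tested in brackets) at 5, 10 and 30 min and 1 and 2 h (columns, blue lower and red higher). AP-1 and EGR lists were lowest at 1 h, at -0.70 and -0.68, ribosome biogenesis was highest at 30 min, at 0.27, and the housekeeping list stayed between -0.01 and 0.06.

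Genes were then sorted by how long a change held. A change called with the same sign at 1 h and 2 h was named lasting, and there were 1049 (8.24% of genes), 503 rises (3.95%) and 546 falls (4.29%). Of all genes, 208 were called at all 5 times with 1 sign, 136 of them higher, and 20 were called in both directions at different times. The largest lasting rises at 2 h were TXNRD1, RBPMS2, ANGPTL4, HPCAL1, DENND2C and VASN (1.28), a cell surface inhibitor of TGF-beta. The largest falls were FOS, EGR1, TCIM, EGR3 on its brighter probe alone, ATF3 and PTGER4. CRY1, a repressor of the circadian clock, read 7.01, 7.01 and 6.89 at time 0, 7.94, 7.72 and 7.77 at 5 min, 8.01, 7.95 and 8.21 at 10 min, 8.15, 8.32 and 8.54 at 30 min, 8.25, 8.22 and 8.33 at 1 h, and 8.23, 8.21 and 8.20 at 2 h. It rose within 5 min (0.84, adjusted p = 0.013) and held at 1.24 at 2 h, while the clock-controlled factor DBP fell by 1.23 at 30 min and the clock repressor BHLHE40 by 0.85 at 1 h.

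Transient changes, called earlier, not called at 2 h and with a called return, were fewer, 146 genes (1.15%) with 82 rises (0.644%) and 64 falls (0.503%), and 63 of the rises peaked at 30 min and 38 of the falls at 1 h. MARS2, the mitochondrial methionyl-tRNA synthetase, read 6.21, 6.19 and 6.29 at time 0, 6.40, 6.33 and 6.44 at 5 min, 6.43, 6.24 and 6.52 at 10 min, 6.96, 7.11 and 7.31 at 30 min, 6.87, 6.61 and 6.81 at 1 h, and 6.63, 6.31 and 6.39 at 2 h. It rose by 0.90 ± 0.10 at 30 min (adjusted p = 3.32e-11) and had lost 0.68 of that at 2 h (adjusted p = 4.29e-06). A dimmer second probe of MARS2 differed by only 0.13 at 30 min and -0.03 at 2 h. ZNF200, a zinc finger protein, HS3ST1, a heparan sulphate sulphotransferase, FAM83C and DKK1, a secreted Wnt inhibitor, rose by 0.89, 0.86, 0.77 and 0.72 at 30 min and TNFRSF10A, a TRAIL receptor, by 0.75 at 1 h. A dimmer second probe of DKK1 rose by 0.76 at 30 min and was still 0.66 higher at 2 h.

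FBXO32, a ubiquitin ligase that FOXO factors induce, was the largest transient fall. It read 7.73, 7.80 and 7.78 at time 0, 8.00, 7.82 and 7.82 at 5 min, 7.60, 7.67 and 7.62 at 10 min, 7.05, 7.19 and 7.33 at 30 min, 6.62, 7.00 and 6.93 at 1 h, and 7.29, 7.67 and 7.63 at 2 h. The 1 h fall of 0.92 (adjusted p = 9.02e-10) was followed by a return of 0.68 at 2 h (adjusted p = 8.58e-05). MAP3K5, a stress kinase, fell by 0.90 at 30 min, and CSRNP1, CDC42EP4 and ARHGEF16 by 0.83, 0.78 and 0.77 at 1 h. NUDT8 fell by 0.79 at 5 min, and its difference was -0.52 and not called without the second 5 min replicate (adjusted p = 0.11). The transient count was 92 without the second 2 h replicate and 94 without the third. KLF9, a target of the glucocorticoid receptor, reversed: it was 0.54 higher at 5 min and 0.36 lower at 30 min.

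Changes first called at 2 h numbered 137 (1.08%), 49 rises (0.385%) and 88 falls (0.691%), and 89 in all without the first 2 h replicate. POLG2, the accessory subunit of mitochondrial DNA polymerase, read 5.04, 5.07 and 5.36 at time 0, 4.73, 4.83 and 5.18 at 5 min, 4.93, 4.68 and 4.99 at 10 min, 4.68, 4.79 and 5.02 at 30 min, 4.84, 5.03 and 4.77 at 1 h, and 4.57, 4.42 and 4.31 at 2 h. Its 2 h arrays were all below the earlier ones (-0.72 ± 0.13 against time 0, adjusted p = 1.57e-05). MTERF3, a mitochondrial transcription factor, fell by 0.55 and BCL7B, a subunit of the SWI/SNF complex, rose by 0.50. Of the 12 late genes named by rule these 3 kept their call with any single array left out. The other 9 (PATE2, ZNF430, NXPH2, HSPB8, UCHL1, ANXA2R-OT1, MAP2K2, PYGO2 and ARID4B) lost it in 1 or more of these fits.

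The cetuximab arm went through the same starvation, so its own course from its own time 0 was set beside that of the controls. At 5, 10 and 30 min and 1 and 2 h, 1131, 1672, 2992, 2527 and 1834 genes were called there, 8.88%, 13.1%, 23.5%, 19.8% and 14.4%. Calls shared by both arms with the same sign numbered 267, 503, 1606, 1252 and 856 at the 5 times. That was 67.3%, 74.5%, 70.5%, 60.1% and 62.5% of the control calls and 23.6%, 30.1%, 53.7%, 49.5% and 46.7% of the cetuximab calls, and 1, 2, 3, 19 and 2 genes were called in opposite directions. The change itself differed between arms for 40, 45, 27, 133 and 49 genes at the 5 times (0.314%, 0.353%, 0.212%, 1.04% and 0.385%), and the test over all 5 times called 101 (0.793%). The same test run without the second cetuximab time 0 replicate called 62. The arms were not level at time 0, which enters every one of these values.

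FOS fell in both arms, by 2.68 in controls and by 4.65 in cetuximab cells at 30 min, a difference of 1.96 ± 0.17 (adjusted p = 6.64e-14). At time 0 it averaged 9.79 in controls and 11.30 in cetuximab cells. SPRY1 was alike in this, with changes of -0.67 in controls and -1.99 in cetuximab cells at 10 min and means at time 0 of 5.68 in controls and 6.80 in cetuximab cells. NFKBIA at 2 h was 1.14 below time 0 in controls and 0.24 above it in cetuximab cells (difference -1.38 ± 0.19, adjusted p = 1.48e-06), with time 0 means of 10.60 in controls and 9.84 in cetuximab cells.

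ANGPTL4 differed between arms at 2 h. It was still 1.35 above time 0 in controls at 2 h and 0.29 above it in cetuximab cells (difference 1.06 ± 0.17, adjusted p = 0.000103), from time 0 means of 6.07 in controls and 6.27 in cetuximab cells. Up to 30 min its differences between arms were 0.09 to 0.16 and not called. TXNRD1 rose in both arms and differed at 10 min alone, by -0.73 (adjusted p = 0.0223), with rises of 1.26 in controls and 1.99 in cetuximab cells and time 0 means of 7.87 in controls and 7.29 in cetuximab cells. MYC had differences of -0.09 to 0.11 between the arms, with no call at any time.

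**Figure D5:**
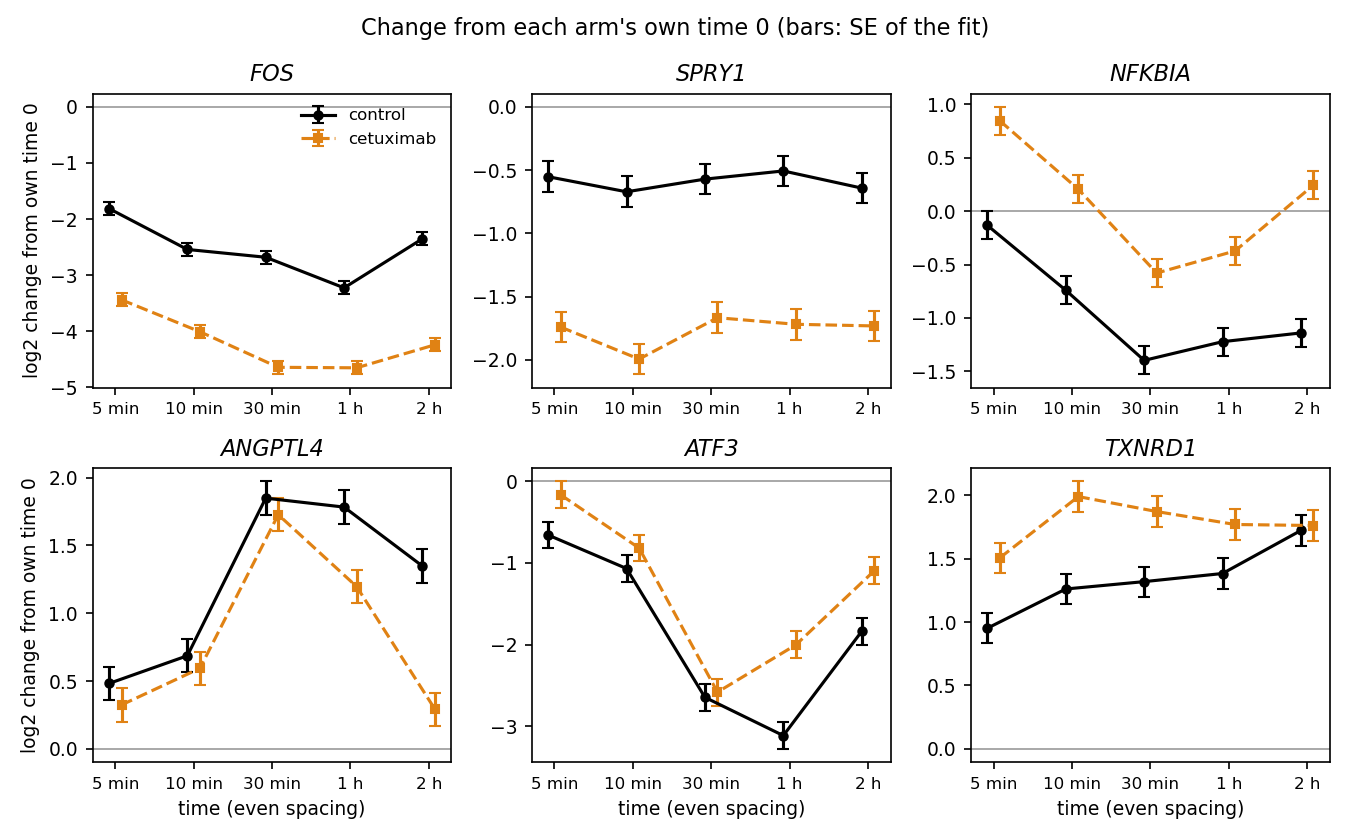
Log2 change from each arm's own time 0 in controls (circles, solid lines) and cetuximab cells (squares, dashed lines) at 5, 10 and 30 min and 1 and 2 h (points are estimates of the fit, bars their SE, 3 arrays a time and arm). FOS and SPRY1 changes lay lower in cetuximab cells at every time, NFKBIA lay lower in controls, and ANGPTL4 was furthest apart at 2 h, with 1.35 in controls and 0.29 in cetuximab cells.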

How the data were processed

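Total RNA was labelled with biotin and hybridised to Illumina HumanHT-12 v4 BeadChips, 1 colour. The values deposited by the authors were taken to be on the log2 scale because they range from 0.26 to 13.76 and the base is not stated. Per the submitters' processing notes limma was used (no version), while how background was corrected and arrays normalized is not given in the sources used here. No author comparisons were used. Of 47292 probes 30096 had 1 gene symbol in the platform annotation, 8 had several and 17188 had none (30057 symbols were matched to RefSeq by Entrez ID, and none changed). Probes with a mean under 4.24, the median, were left out, and the brightest probe stood for a gene (12735 genes).

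A linear model with 30 group means was fitted over the 90 arrays (limma 3.58.1, R 4.3.3, 60 residual degrees of freedom), with two-sided contrasts adjusted over all genes by Benjamini-Hochberg. The number of arrays limits the precision. On simulated data for the 5 min comparison 11.9% of changes of 0.25, 67.2% of changes of 0.5 and 97% of changes of 1 were recovered. These were 67, 67 and 66 changed genes among 12735. For 2 h 55.2% of changes of 0.5 were recovered. The simulated noise was normal and drawn separately for each value. The rule for named genes took the 6 largest rises and falls at each time, with arrays that did not overlap time 0, and in each of the lasting, transient and late classes, up to 4 members of each list, and 12 set genes. BCL3's return, JUND and TNFAIP3, the genes grouped for a dip at 1 h and the TXNRD1 promoter were added after their values were seen. Members, lists and tests were chosen with earlier results of these data known. RefSeq promoter windows were matched by symbol for 10125 genes. Replicate numbers come from the labels, which do not say what they mark. Deviations from group means correlated by 0.12 to 0.23 in all 3 same-numbered pairs of 5 min and time 0. For the other times not every pair passed 0.1. The reported fit did not pair arrays by number, and fits with the number as a block are given below.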

Additional observations from a re-analysis of the deposited data

Results flagged for a closer look

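For 28 of the 179 named genes the change from time 0 differed between the control arm and the cetuximab arm. Each was called both by the limma test over all 5 times and at the time given, with every adjusted p under 0.05. Over all genes the test over 5 times called 101 of 12735 (0.793%). Named genes were chosen largely by the size of their control change from time 0, which is part of these differences. The shares therefore cannot be set against each other. Differences are control change minus cetuximab change on the log2 scale, at the time where the difference was largest among those called. Both arms' own time 0 arrays enter them.

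Among early transcription factors the difference was 1.96 for FOS at 30 min, 1.05 for EGR1 at 2 h, -1.11 for ATF3 at 1 h, -0.92 for KLF2 at 1 h and -0.70 for CSRNP1 at 1 h. FOS and EGR1 fell less in controls, ATF3, KLF2 and CSRNP1 fell further.

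Among feedback inhibitors and factors of mRNA decay it was 1.32 for SPRY1 at 10 min, 0.94 for DUSP1 at 2 h, -0.60 for DUSP5 at 1 h, -0.53 for DUSP14 at 1 h, 0.66 for ZFP36 at 2 h and -0.73 for TOB1 at 1 h. NF-kB feedback genes gave -1.38 for NFKBIA at 2 h, 1.27 for NFKBIZ at 1 h and -0.71 for BCL3 at 1 h, and IRF1, an interferon-regulated factor, gave -0.73 at 2 h.

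Secreted proteins gave -0.87 for CXCL8, -0.49 for HBEGF, -0.96 for IL1A and -1.05 for IL1B, all at 10 min, -0.86 for IL11 at 5 min and 1.06 for ANGPTL4 at 2 h. IL1B at 10 min was 0.55 below time 0 in controls and 0.50 above it in cetuximab cells.

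The remaining genes were TXNRD1 at -0.73 and RND3 at -0.55 at 10 min, TAGLN, an actin-binding protein, at -0.73 at 5 min, CDC42EP4 at -0.94, the CDK inhibitor CDKN1A at -0.57 and MTERF3 at 0.56 at 1 h, and FLRT3 at -0.59 at 2 h.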

How the results depend on the processing

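Counts of called genes kept within 1.5 times of those reported under median centring, quantile normalization, no or stricter filters on dim probes, the mean of a gene's probes, and eBayes with a trend and robust prior. With only the arrays compared, transient changes numbered 94. With 5 and 10 min as base, 1253, 1309 and 234 genes were called at 30 min, 1 h and 2 h. With the replicate block on all arrays, 437 genes were called at 5 min, 718 at 10 min, 2363 at 30 min, 2214 at 1 h, 1461 at 2 h and 2599 over the first 2 hours, with 1118 lasting, 167 transient and 144 late changes, 264 from 5 and 10 min to 2 h and 103 for the arms. The block moved no count by over 1.5 times, with only the arrays compared or as a random effect either, and each of the 18 arrays correlated best with its own number, a hint from the data and not from the design.

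Leaving out a replicate number gave 118 to 195 genes at 5 min, 272 to 457 at 10 min, 1250 to 1580 at 30 min, 1055 to 1478 at 1 h, 680 to 958 at 2 h and 1215 to 1559 over the first 2 hours, 493 to 700 lasting, 23 to 75 transient and 93 to 121 late changes, 50 to 108 from 5 and 10 min to 2 h and 9 to 47 for the arms, from 2 arrays a group. The lowest was in every case without replicate 2. Leaving out 1 array gave 210 to 316, 449 to 553, 1731 to 1907, 1624 to 1749 and 981 to 1177 genes at the 5 times, 2116 to 2392 over the first 2 hours, 778 to 1055 lasting, 92 to 163 transient, 89 to 165 late, 111 to 252 and 62 to 120. Of 145 named genes called at their time 111 kept the call under every setting run. Uncalled values that turned round were DCN at 30 min (-0.26 to 0.16 over these fits, 0.16 without replicate 1 and 0.08 without control 30 min replicate 1), and, at 2 h, MT1G (-0.21 to 1.14, with -0.01 without replicate 1 and -0.21 without control 2 h replicate 1) and MT1M (-0.37 to 0.89, with -0.22 and -0.37). The cause was not tested.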
